A study of Mus musculus with 3 samples.

Results

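The genes described here encode the machinery that releases neurotransmitter from synaptic vesicles: 46 presynaptic genes, given as a list of symbols, out of the 21887 protein-coding genes on the chromosomes of the gene table. A peak belonged to a gene when it overlapped the annotated gene span or 5 kb on either side. By this rule 361 of the 112153 control ATRX peaks and 342 of the 105674 MICAL1-FL peaks lay at these genes. The study profiled ATRX binding by ChIP-seq in primary neurons of C57BL6/J mouse embryos (E15.5 to E17.5) at day 14 in vitro (DIV14). Neurons were infected with lentivirus on day 5, carrying mCherry, a red fluorescent protein, in the control group and MICAL1-FL in the other. The comparison asked whether ATRX sits at different places when MICAL1-FL is present.

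Each condition had 1 ChIP library. Differences between them therefore have no replicate check, and the exact 95% intervals given here cover counting error only. The sources used here do not give the promoter that drives either insert or the number of embryos pooled, and name no genome build. Peak identifiers in the list titled MICAL1-FL start with TBC_M2, and every MICAL1-FL value rests on the title. Peak lists hold no RNA level, so the labelled cell type could not be checked against its markers. The lists fitted mouse GRCm38: peak summits within 250 bp of annotated transcription starts were 4.36 times (control) and 4.86 times (MICAL1-FL) as dense as 5 to 10 kb away.

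Transmitter release takes place at the active zone, where scaffold proteins of the RIM, RIM-binding, Munc13, ELKS, liprin, Bassoon and Piccolo families hold vesicles next to calcium channels. SNARE proteins on the vesicle and the plasma membrane zip together to fuse the membranes, complexins hold the assembled complex, and synaptotagmins trigger fusion on binding calcium. ATRX is a chromatin remodeller known to place histone H3.3 with DAXX and to bind repeats and G-rich DNA, and MICAL1 is an enzyme that oxidises actin. The genes formed 4 groups by role: 13 active zone, 9 SNARE and SNARE-regulator, 12 synaptotagmin and Doc2, and 12 vesicle protein genes. Synaptotagmins and Doc2 proteins have C2 domains, and most of those listed sense calcium.

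ATRX peaks at presynaptic genes were shallow, and not denser beyond counting error than at protein-coding genes at large. Peaks numbered 47.8 per Mb (43.0 to 53.0) in the control list and 45.3 per Mb (40.6 to 50.4) in the MICAL1-FL list, against 45.9 and 42.5 per Mb over all protein-coding genes with the same 5 kb flanks. That is 1.04 times the level of all genes (0.938 to 1.16) in the control list and 1.07 times (0.956 to 1.18) in the MICAL1-FL list. The median gene of the list carried 53.7 and 43.4 peaks per Mb, where the median protein-coding gene carried 32.8 and 29.4. The depth of the median peak was 5 ChIP fragments, and the median fold over background was 2.29, in each list, the same as at all protein-coding genes. A fold is the authors' ratio of ChIP to background at that peak and ranks peaks only against others of the same list. Depth was recovered from the fold and the p-value. The tallest control peak at these genes was 11 fragments deep and the tallest MICAL1-FL peak 9. The peak caller's q-value, its p-value corrected over the genome, was below 1 for 24 control peaks (6.65%, 4.31 to 9.73) and 12 MICAL1-FL peaks (3.51%, 1.83 to 6.05), against 4.56% and 3.39% of peaks at all protein-coding genes. It was below 0.05 for 0 in each list. So 0 of 46 genes held a peak of q below 0.05 in either list (upper bound 7.71%), where 1.12% of all protein-coding genes held a control one and 0.736% a MICAL1-FL one. Single peaks are therefore described below as places in a list, not as established binding sites.

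Peak numbers at presynaptic genes did not differ between the libraries beyond counting error. The MICAL1-FL to control ratio was 0.947 (0.815 to 1.10), and 0.927 over all protein-coding genes. Relative to all genes, the log2 ratio was 0.032 (-0.19 to 0.25). Leaving out each gene in turn kept it between -0.036, without Syt1, and 0.058, without Rimbp2. More peaks were counted in the control list at 24 genes, more in the MICAL1-FL list at 11, and equal numbers at 8, while 3 genes (6.52%, 1.37 to 17.9) had none, against 22.9% of all protein-coding genes and 9.98% weighted to the same lengths. Over all protein-coding genes 7690 had more control and 6285 more MICAL1-FL peaks. By group this log2 ratio was 0.066 for active zone genes (-0.26 to 0.39), -0.13 for SNARE genes (-0.78 to 0.52), 0.22 for synaptotagmin and Doc2 genes (-0.29 to 0.73) and -0.11 for vesicle protein genes (-0.58 to 0.36). Each of these intervals includes 0.

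**Figure D1:**
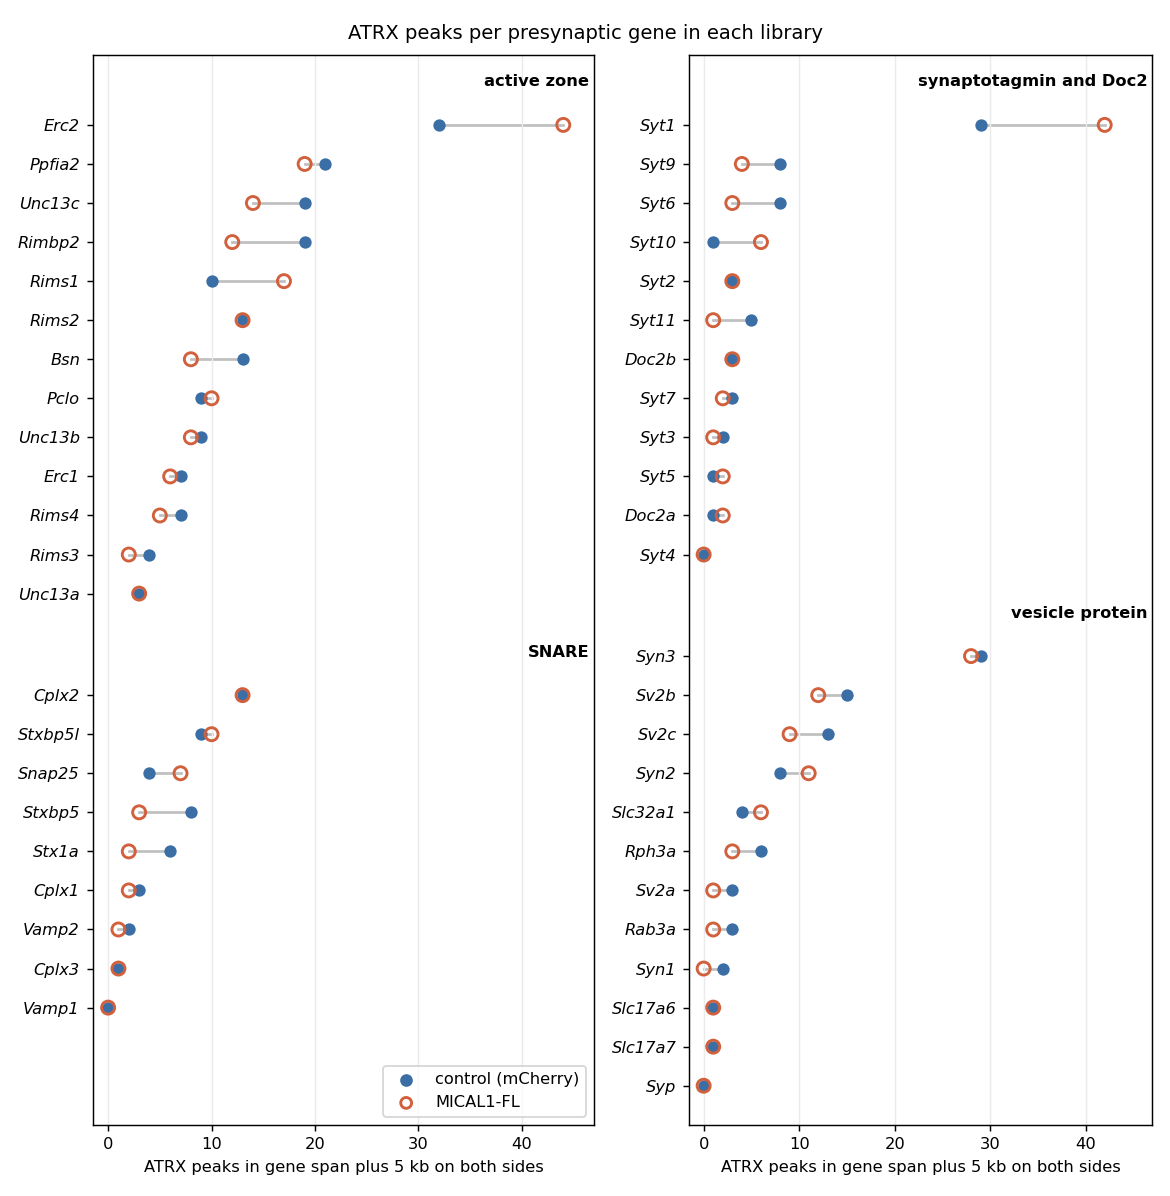
Number of ATRX peaks in each of the 46 presynaptic genes and 5 kb on both sides (horizontal axis), with filled points for the control library and open points for the MICAL1-FL library. Erc2 and Syt1 carry the most peaks in the MICAL1-FL library (44 and 42), and Vamp1, Syt4 and Syp carry none in either.

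Of the 46 genes, 23 had at least 10 peaks over both lists, enough to give a ratio. The ratio was 1.5 or more at 3 of them (Rims1, Snap25 and Slc32a1), where 17.1% of 2602 protein-coding genes with as many peaks passed this bound. It was lower in MICAL1-FL neurons by 1.5 times or more at 5 (Syt6, Rimbp2, Syt9, Bsn and Stxbp5), against 25.5% of protein-coding genes. The exact interval of a gene's own ratio left out 1 at 0 of the 23 genes, against 3.11% of protein-coding genes. These shares lie near those of all genes.

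Active zone genes are long, and over their joined windows they had the lowest peak density of the 4 groups. Their median span was 277 kb, against 17.2 kb for all protein-coding genes. Peak density was 38.9 per Mb in the control list (33.2 to 45.3), which is 0.848 times that of all genes (0.724 to 0.987). In the MICAL1-FL list it was 37.7 per Mb (32.1 to 44.0), which is 0.887 times (0.755 to 1.04). By gene, the group's median was 39.4 control and 38.6 MICAL1-FL peaks per Mb, above the 32.8 and 29.4 of the median protein-coding gene. Set against the density of protein-coding genes of like length, in 10 classes, the 166 control peaks were 0.768 times the 216 due (0.655 to 0.894), and the 161 MICAL1-FL peaks 0.786 times the 205 due (0.669 to 0.917). Both intervals lie below 1, though lengths within the class of longest genes were not matched further.

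Erc2, which encodes the ELKS scaffold CAST, held the most peaks of the group, 32 of them control and 44 from the MICAL1-FL list (ratio 1.38, 0.852 to 2.24). Rims1, for the RIM1 protein that tethers vesicles through Rab3, had 10 and 17 (ratio 1.70, 0.735 to 4.15). Its paralog Rims2 had 13 in each list. In the other direction Rimbp2, whose product links RIM to calcium channels, had 19 and 12 peaks (ratio 0.632, 0.280 to 1.37). The Munc13 gene Unc13c had 19 and 14, and the liprin gene Ppfia2 had 21 and 19. Bsn, for the giant scaffold Bassoon, had 13 and 8 peaks, while Pclo, for its relative Piccolo, had 9 and 10 over a gene that is longer. That is 125 and 76.6 peaks per Mb at Bsn against 25.1 and 27.9 at Pclo. The intervals of all ratios in this group include 1. Without Erc2 the group's log2 ratio relative to all genes turned from 0.066 to -0.086 (-0.46 to 0.28). The remaining genes were Unc13b with 9 and 8 peaks, Erc1 with 7 and 6, Rims4 with 7 and 5, Rims3 with 4 and 2, and Unc13a, the main vesicle-priming Munc13 of excitatory synapses, with 3 and 3.

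SNARE genes had 62.1 control peaks per Mb (45.5 to 82.8) and 52.7 MICAL1-FL peaks per Mb (37.4 to 72.0), from 46 and 39 peaks. That is 1.35 times (0.991 to 1.81) and 1.24 times (0.881 to 1.69) the density of all genes. Cplx2, for the brain complexin 2, led with 13 peaks in each list, a density of 141 per Mb. Stxbp5l, for a tomosyn that binds syntaxin and holds fusion back, had 9 and 10 peaks, and its paralog Stxbp5 had 8 and 3. Without Stxbp5 the group's log2 ratio relative to all genes turned from -0.13 to 0.032. Snap25, for the plasma membrane SNARE cut by botulinum toxin, had 4 control and 7 MICAL1-FL peaks. Stx1a, for its partner syntaxin 1A, had 6 and 2. Cplx1 had 3 and 2, and the vesicle SNARE gene Vamp2, only 3.85 kb long, had 2 and 1. Cplx3 had 1 peak in each list, and Vamp1 had none in either. At counts this low no member's difference exceeds its counting interval.

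Synaptotagmin and Doc2 genes had the highest MICAL1-FL density of the groups over their joined windows, with 42 of the 69 peaks at Syt1. That density was 56.6 peaks per Mb (44.0 to 71.6), which is 1.33 times that of all genes (1.04 to 1.68). The group's control density was 52.5 per Mb (40.4 to 67.0) from 64 peaks, 1.14 times that of all genes (0.881 to 1.46). Protein-coding genes of like length would give 54.9 MICAL1-FL peaks, which leaves 0.978 to 1.59 times, and 58.8 control peaks, which leaves 0.838 to 1.39 times, and both intervals include 1. Syt1 alone held 29 of the control and 42 of the MICAL1-FL peaks. By gene, the group's median was 37.0 MICAL1-FL peaks per Mb, the lowest of the 4 groups, against 29.4 for the median protein-coding gene. In the control list these medians were 55.8 and 32.8. Syt1 encodes the calcium sensor of fast release. Its ratio was 1.45 (0.881 to 2.41), at 55.4 and 80.3 peaks per Mb. Without Syt1 the group had 35 control and 27 MICAL1-FL peaks, and its log2 ratio relative to all genes turned from 0.22 to -0.26 (-1.05 to 0.50). Syt9 had 8 and 4 peaks and Syt6 8 and 3. Syt10 had 1 and 6 (interval of the ratio 0.728 to 276), and Syt11, an atypical member that does not sense calcium, had 5 and 1 (interval 0.0042 to 1.79). Syt2 and Doc2b had 3 peaks in each list, Syt7, a slow high-affinity sensor, 3 and 2, and Syt3 2 and 1. Syt5 and Doc2a had 1 and 2 each. Syt4, another atypical synaptotagmin, had none.

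Vesicle protein genes had the highest control density of the groups, 64.5 peaks per Mb (51.5 to 79.7) from 85 peaks, 1.41 times that of all genes (1.12 to 1.74). The MICAL1-FL density was 55.4 per Mb (43.4 to 69.6) from 73 peaks, with an interval of 1.02 to 1.64 times that of all genes. Protein-coding genes of like length would give 65.2 control peaks, which leaves 1.04 to 1.61 times, and 61.3 MICAL1-FL peaks, which leaves 1.19 times and an interval that includes 1. Syn3, for the synapsin that is expressed early in development, had 29 and 28 peaks, and Syn2 had 8 and 11. Sv2b and Sv2c, for vesicle glycoproteins, had 15 and 12, and 13 and 9. Slc32a1, for the vesicular GABA transporter, had 4 and 6 peaks in its gene of 8.49 kb and the 5 kb on either side. At 216 and 325 per Mb of that window it was the densest of all 46 genes in each list. The vesicular glutamate transporter genes Slc17a6 and Slc17a7 had 1 peak each in each list. Rph3a had 6 and 3, Rab3a 3 and 1, and Sv2a 3 and 1. Syn1 had 2 and 0 peaks and Syp, for synaptophysin, 0 and 0. Syn1 and Syp are the members on the X chromosome.

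**Figure D2:**
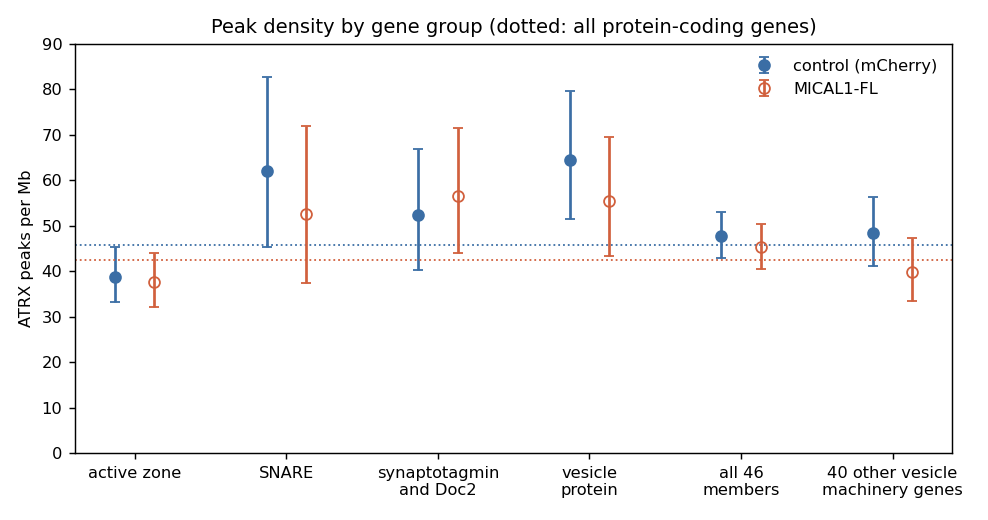
ATRX peaks per Mb of gene and flank (vertical axis) in each group of presynaptic genes and in 40 other genes of the vesicle machinery, with 95% exact Poisson intervals for counting error. Dotted lines give all protein-coding genes (45.9 control, 42.5 MICAL1-FL), and active zone genes lie below the other groups at 38.9 and 37.7.

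Genes dense in one library tended to be dense in the other. Across the 46 genes, peaks per Mb of the lists had a Spearman's rho of 0.620 and a Pearson's r of 0.618. Each gene enters with the same window length in both lists, and genes are not independent replicates. No such value over all protein-coding genes is given here, so the tendency is not shown to be particular to presynaptic genes. A list of 40 other genes of the vesicle machinery, such as Nsf and further synaptotagmins, had 161 control and 133 MICAL1-FL peaks, 1.05 and 0.940 times the density of all genes, and a log2 ratio of -0.17 relative to them (-0.51 to 0.17).

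Peaks at gene ends were more common among presynaptic genes than among protein-coding genes at large. The median member is longer than the median protein-coding gene, at 68.6 kb against 17.2 kb. A peak overlapped the 1 kb on either side of an annotated gene end at 28 of 46 genes in the control list (60.9%, 45.4 to 74.9), against 29.3% of all protein-coding genes. In the MICAL1-FL list it did so at 24 genes (52.2%, 36.9 to 67.1), against 27.9%. Both lists had an end peak at 20 genes (43.5%, 28.9 to 58.9), against 12.3%. With protein-coding genes weighted to the same lengths in 10 classes, 37.8%, 36.1% and 18.4% would be due, so the intervals lie above these shares too. Traits other than length, such as expression or base composition, were not matched. By group, the genes with an end peak in both lists were 7 of 13 active zone genes, 4 of 9 SNARE genes, 6 of 12 synaptotagmin and Doc2 genes and 3 of 12 vesicle protein genes. Of the 40 other machinery genes, 13 had a control end peak, 18 a MICAL1-FL end peak and 7 one in both lists.

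For 36 of the 46 genes a promoter table from RefSeq gives the strand, so the start can be told from the far end. Summits within 1 kb of the start numbered 222 per Mb in the control list (127 to 361, from 16 summits) and 208 per Mb in the MICAL1-FL list (117 to 344, from 15), where 15328 protein-coding genes of known strand gave 123 and 119. The lower bounds lie close to those values. Within 1 kb of the far end the densities were 83.3 (30.6 to 181) and 41.7 (8.59 to 122) per Mb, against 37.2 and 32.1. Inside the genes they were 44.9 and 43.2 per Mb, against 43.2 and 40.3. So the start was the densest part of these genes in each library, as it was for protein-coding genes at large. Over the 16 genes of known strand longer than 100 kb, the summits within the gene fell as 50, 49, 37, 32 and 43 control and 47, 54, 37, 46 and 36 MICAL1-FL summits in 5 equal stretches from the start on.

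**Figure D3:**
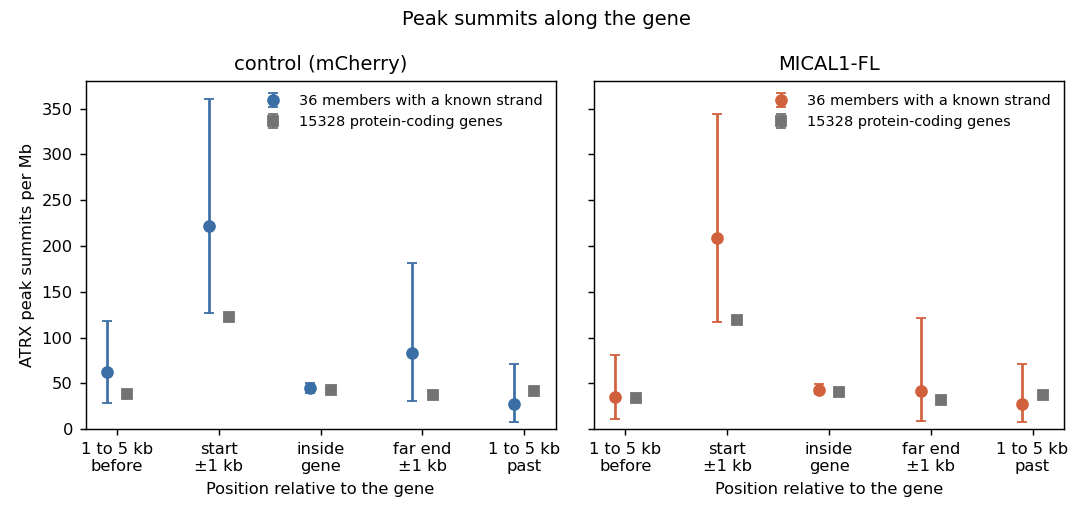
ATRX peak summits per Mb (vertical axis) by position along the gene for 36 presynaptic genes (coloured circles) and 15328 protein-coding genes (grey squares), with 95% exact Poisson intervals for counting error. In each library the zone within 1 kb of the start is the densest, at 222 and 208 summits per Mb for presynaptic genes.

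A start peak was present in both lists at 9 of the 36 genes of known strand. At 5 of these 9 (Erc2, Stxbp5, Bsn, Cplx2 and Syt6) the peaks of the lists overlapped. Of the other machinery genes of known strand, 5 of 27 had a start peak in both lists. These shares were not taken over all protein-coding genes, so the counts are not shown to be particular to presynaptic genes. At Erc2 the control peak chr14:27622356-27623077 was 10 fragments deep over a background of 2.16 (fold 3.48), with its summit 232 bp past the start. The MICAL1-FL peak chr14:27622701-27623068 was 7 fragments deep over 1.62 (fold 3.06). At Stxbp5 the peaks were 7 fragments deep in each list, with folds of 2.62 and 2.85 and control and MICAL1-FL summits 258 and 635 bp past the start. At Bsn, Cplx2 and Syt6 the control peaks were 6, 8 and 6 and the MICAL1-FL peaks 5, 5 and 7 fragments deep. The start peaks of Unc13a, Ppfia2, Syt1 and Sv2a lay apart. At Syt1 the control summit was 1055 bp past the start (fold 2.67) and the MICAL1-FL summit 188 bp past it (fold 3.08, 8 fragments deep).

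Promoters are shown for 5 genes, so that the bases under a peak can be seen at a gene from each group with a start or promoter peak. Each is the 300 bases from 250 before to 50 after a transcription start of the RefSeq table (GRCm38.p6), written 5′ to 3′ on the gene's strand, with capitals for bases covered by a deposited peak. The Erc2 window (chr14:27622157-27622456, plus strand) has its last 101 bases under the control peak. The Stxbp5 window (chr10:9900991-9901290, minus strand) has its last 218 bases under the control peak. The Slc32a1 window (chr2:158610508-158610807, plus strand) lies wholly under a control peak 8 fragments deep (fold 3.43), inside the annotated gene span and not at its outer end. The Syt1 window (chr10:109010926-109011225, minus strand) lies wholly under the MICAL1-FL peak. In the Unc13a window (chr8:71671708-71672007, minus strand) the first 98 bases lie under a MICAL1-FL peak (fold 2.55) and the last 13 under a control peak (fold 2.67).
Erc2: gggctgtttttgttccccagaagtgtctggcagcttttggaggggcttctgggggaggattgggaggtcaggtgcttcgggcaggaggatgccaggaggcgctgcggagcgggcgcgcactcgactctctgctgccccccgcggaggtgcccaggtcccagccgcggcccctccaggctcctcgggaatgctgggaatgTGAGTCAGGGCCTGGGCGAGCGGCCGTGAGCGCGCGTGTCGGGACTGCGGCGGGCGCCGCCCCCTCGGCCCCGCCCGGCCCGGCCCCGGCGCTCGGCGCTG
Stxbp5: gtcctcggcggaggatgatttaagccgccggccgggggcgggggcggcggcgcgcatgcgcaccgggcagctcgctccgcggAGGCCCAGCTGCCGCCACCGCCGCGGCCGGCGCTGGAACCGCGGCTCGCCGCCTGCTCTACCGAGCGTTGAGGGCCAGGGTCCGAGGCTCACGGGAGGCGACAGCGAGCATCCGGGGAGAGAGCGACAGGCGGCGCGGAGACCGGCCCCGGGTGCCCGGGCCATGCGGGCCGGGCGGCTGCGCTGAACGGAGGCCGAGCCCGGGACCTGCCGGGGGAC
Slc32a1: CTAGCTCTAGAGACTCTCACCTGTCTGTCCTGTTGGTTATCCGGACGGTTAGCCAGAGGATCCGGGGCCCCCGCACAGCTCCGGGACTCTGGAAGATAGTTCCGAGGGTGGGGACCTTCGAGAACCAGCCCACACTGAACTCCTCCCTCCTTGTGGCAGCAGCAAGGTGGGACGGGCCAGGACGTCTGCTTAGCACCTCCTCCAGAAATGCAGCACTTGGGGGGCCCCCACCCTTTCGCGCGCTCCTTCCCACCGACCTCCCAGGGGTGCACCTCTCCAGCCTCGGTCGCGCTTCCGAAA
Syt1: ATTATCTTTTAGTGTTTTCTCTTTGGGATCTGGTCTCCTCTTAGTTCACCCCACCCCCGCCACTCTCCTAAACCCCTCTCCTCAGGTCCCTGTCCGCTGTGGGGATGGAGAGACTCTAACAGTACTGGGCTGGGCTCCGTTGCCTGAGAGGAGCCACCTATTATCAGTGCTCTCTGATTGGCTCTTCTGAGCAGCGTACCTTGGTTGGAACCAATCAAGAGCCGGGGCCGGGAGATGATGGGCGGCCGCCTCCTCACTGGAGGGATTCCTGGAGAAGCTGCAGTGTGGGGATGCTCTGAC
Unc13a: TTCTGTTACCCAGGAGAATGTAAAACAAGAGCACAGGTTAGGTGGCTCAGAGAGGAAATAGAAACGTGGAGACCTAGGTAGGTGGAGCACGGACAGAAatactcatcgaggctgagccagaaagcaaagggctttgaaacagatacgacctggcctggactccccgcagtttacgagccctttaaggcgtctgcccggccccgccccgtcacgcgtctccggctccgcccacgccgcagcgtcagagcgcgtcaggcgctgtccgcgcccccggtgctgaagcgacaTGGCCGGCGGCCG

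A promoter window overlapped a control peak at 9 of the 36 genes with an entry in the table (Rims1, Rims3, Bsn, Erc2, Unc13a, Stxbp5, Syt6, Sv2a and Slc32a1), against 11.2% of 17492 protein-coding genes. That is 25.0% (12.1 to 42.2), and 17.6% would be due at the same lengths. A MICAL1-FL peak overlapped it at 5 genes (Unc13a, Cplx2, Syt1, Syt3 and Sv2c). That is 13.9% (4.67 to 29.5) against 11.7%, and 18.1% would be due at the same lengths. Unc13a alone had one in both lists (2.78%, 0.0703 to 14.5), against 2.88%, and 5.47% would be due at the same lengths. So at this narrower window presynaptic genes were within counting error of all genes of like length. They lay above that share in the control list and below it in the MICAL1-FL list and in both lists together. Rims2, Rims4, Snap25, Vamp2, Syt4, Syt5, Syt7, Doc2a, Doc2b and Syn3 had no entry in the table.

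The promoters of these genes were richer in G and C than most. The 48 promoter windows of the 36 genes had a median of 62.7% G and C and 17.5 CpG dinucleotides, against 56.3% and 13 over 21263 protein-coding promoters. A G-quadruplex motif, searched on both strands as 4 runs of GGG or longer with 1 to 7 bases between runs, was present in 20 of 48 windows (41.7%), against 22.0% of all promoters. It was present in 9 of 15 windows with a peak and 11 of 33 without one, and over all promoters in 34.9% with a peak and 19.1% without. The 15 windows came from 13 genes, and windows of a gene can overlap, as at Syt6, so windows are not independent. Of the promoters printed above, those of Erc2 and Stxbp5 hold the motif, and those of Slc32a1, Syt1 and Unc13a do not. A match describes letters in the window and does not show a folded structure or a binding site.

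More presynaptic genes than protein-coding genes at large held a place found in both libraries. The share of peaks found in both was within counting error of all genes, and most such peaks were shallow. In the control list 39 of 361 peaks (10.8%, 7.80 to 14.5) shared 1 bp or more with a MICAL1-FL peak, against 8.06% of peaks at all protein-coding genes. Of the MICAL1-FL peaks 38 of 342 did (11.1%, 7.98 to 14.9), against 8.69%. Both intervals include the share at all genes. The shared peaks lay at 25 of the 46 genes (54.3%, 39.0 to 69.1). That compares with 14.8% of all protein-coding genes, most of which are shorter, and 29.1% weighted to the same lengths. Genes were not matched for their number of peaks. Over the 39 pairs of overlapping peaks the median overlap was 198 bp and the median distance between summits 272 bp. The count of genes depended on the definition: it was 14 (30.4%) with summits within 250 bp, against 10.7% of all genes, and 10 (21.7%) with peaks of p at most 0.01, against 9.63%. These last shares of all genes were not weighted to length.

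Syn3 held 5 such pairs, more than any other of the 46 genes. Its pairs at chr10:86094964-86095866, chr10:86300681-86301014 and chr10:86301916-86302173 (control coordinates) had summits 11, 7 and 24 bp apart, and only 4 of the 39 pairs had summits within 50 bp. The last of the 4 lay at chr13:54388765-54389056, past the far end of Cplx2, with 8 control and 4 MICAL1-FL fragments. These places were singled out after their values were seen. These 3 Syn3 pairs were 5 to 6 fragments deep in each list, and those at 86300681 and 86301916 also lie in Timp3, the metalloproteinase inhibitor gene nested within Syn3. The largest fold of the gene was 3.86 in the control list, at chr10:86388561-86388918, and 3.82 in the MICAL1-FL list, at chr10:86250624-86251004. The latter overlapped a control peak of fold 2.46 and the former no MICAL1-FL peak.

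Cplx2 and Bsn followed with 3 pairs each, and Ppfia2, Rimbp2, Syt1, Doc2b, Sv2c and Slc32a1 had 2 control peaks that overlapped. The highest control peak of Ppfia2, at chr10:106732097-106732414, was 9 fragments deep with a fold of 3.81, and the MICAL1-FL peak that overlapped it was 4 deep with a fold of 1.91. At Vamp2 the order was the opposite, with 6 control fragments (fold 1.85) and 9 MICAL1-FL fragments (fold 3.67) at chr11:69089428-69089682 in control coordinates. The deepest peaks of all presynaptic genes were control peaks of 11 fragments at Rims2 and Syt6. The one at Rims2, chr15:39197567-39199177, had a fold of 3.62 and overlapped a MICAL1-FL peak of 6 fragments (fold 2.40), with summits 1700 bp apart. The one within Syt6, chr3:103612397-103613213, had a fold of 3.18 and overlapped none. One overlapping control peak each also lay at Rims1, Rims4, Unc13a, Unc13b, Erc1, Erc2, Snap25, Stx1a, Stxbp5, Syt5, Syt6, Doc2a, Syn2 and Rab3a.

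**Figure D4:**
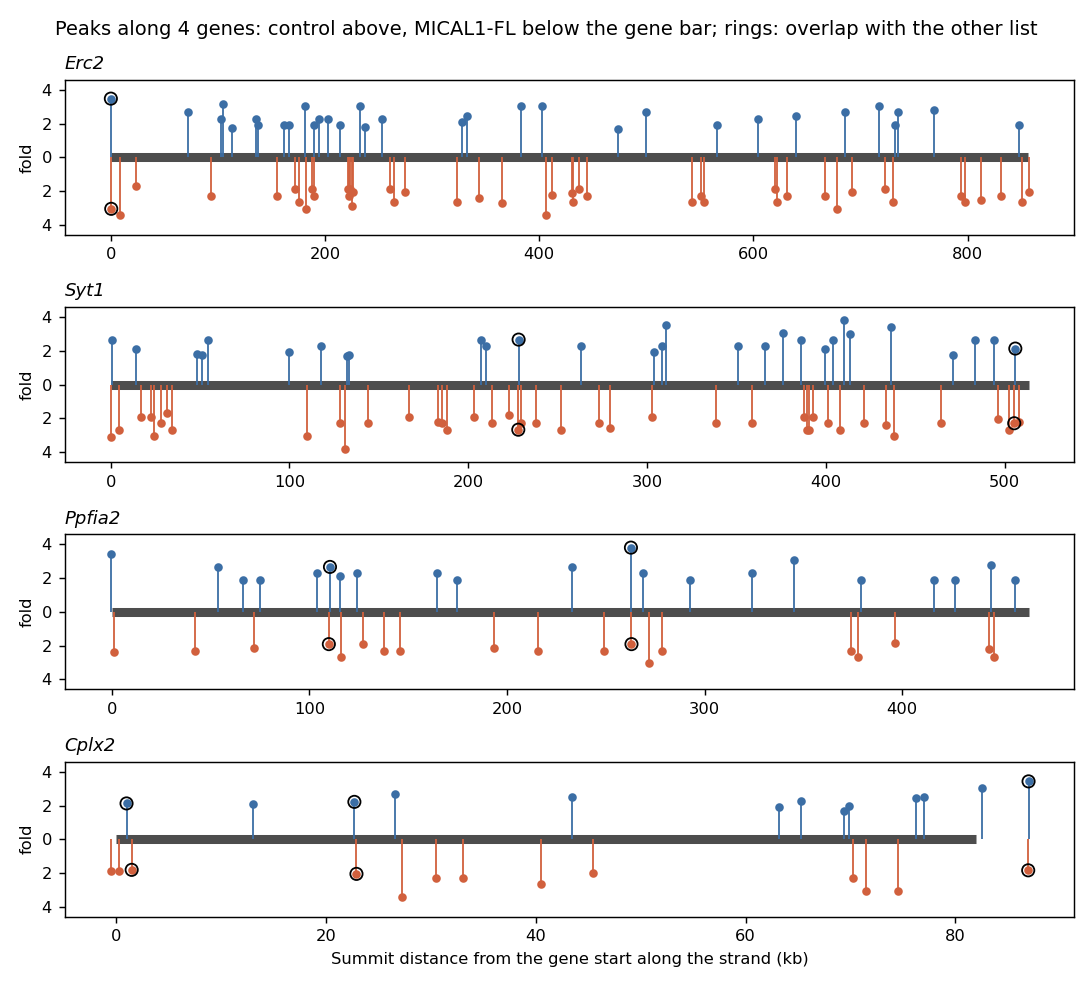
Peaks along Erc2, Syt1, Ppfia2 and Cplx2, with summit distance from the gene start in kb (horizontal) and the authors' fold (vertical), control above and MICAL1-FL below the gene bar. Ringed peaks overlap a peak of the other list: 1 control peak at Erc2, 2 at Syt1, 2 at Ppfia2 and 3 at Cplx2.

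Peaks of fold 3.4 or more lay in all 4 groups. Of 16 such control peaks 5 overlapped a MICAL1-FL peak (31.2%, 11.0 to 58.7), against 10.8% of all control peaks at these genes and 18.4% of equally high control peaks at all protein-coding genes. Of 12 such MICAL1-FL peaks 2 overlapped a control peak (16.7%, 2.09 to 48.4), against 20.5% at all protein-coding genes. The fold of 3.4 was chosen after the values were seen. Beside those above, folds of 3.81 in the control list were reached at Syt1 (chr10:108600381-108600743) and at Syt11 (chr3:88771879-88772252), each 9 fragments deep with no MICAL1-FL peak there. Syt1 had a further control peak of fold 3.55 and Unc13b one of 3.51, and Cplx1, Cplx2, Ppfia2, Slc32a1, Stxbp5l and Syn3 peaks of fold 3.43. In the MICAL1-FL list Syt1 reached 3.82 at chr10:108879951-108880318, and Cplx2, Erc2, Pclo, Rimbp2 and Snap25 reached 3.44. Of the peaks at the 46 genes, 2.49% (control) and 2.63% (MICAL1-FL) also overlapped another protein-coding gene, such as Timp3 within Syn3.

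The median depth was alike in both libraries, and fewer of the MICAL1-FL peaks at these genes were deep. Peaks 7 or more fragments deep made up 20.8% of control peaks (75) and 12.3% of MICAL1-FL peaks (42), a ratio of 0.560 (0.374 to 0.828). Over all protein-coding genes these shares were 18.0% and 15.4%, with a ratio of 0.794 (0.771 to 0.818). Relative to all genes the log2 ratio of such peaks was -0.50 (-1.09 to 0.059), an interval that includes 0. At 8 or more fragments there were 31 and 19 peaks, a ratio of 0.613 (0.327 to 1.12), and the interval includes 1. At 9 or more there were 13 and 3, a ratio of 0.231 (0.0422 to 0.840), an interval that leaves out 1. Over all protein-coding genes the ratios at these depths were 0.763 and 0.737, which the members' intervals include. Peaks 5 fragments deep numbered 125 and 145, a ratio of 1.16 (0.907 to 1.49). Over all protein-coding genes that ratio was 0.957 (0.939 to 0.976), within the members' interval. The depth of 7 was chosen after the values were seen, and at 6 or more fragments the log2 ratio was -0.18 (-0.53 to 0.16). Deep peaks numbered 27 and 19 at active zone genes, 17 and 9 at SNARE genes, 15 and 8 at synaptotagmin and Doc2 genes, and 16 and 6 at vesicle protein genes, fewer in MICAL1-FL neurons in each group, and each group's ratio has an interval that includes 1. At 62.6% of control and 69.9% of MICAL1-FL member peaks the background was at the lowest value of its list, 1.62 fragments. Fold and depth rank these peaks alike. Over all protein-coding genes 60.7% of control and 64.0% of MICAL1-FL peaks had that background. The part of library depth and of background scaling in the lower number of deep MICAL1-FL peaks was not tested.

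**Figure D5:**
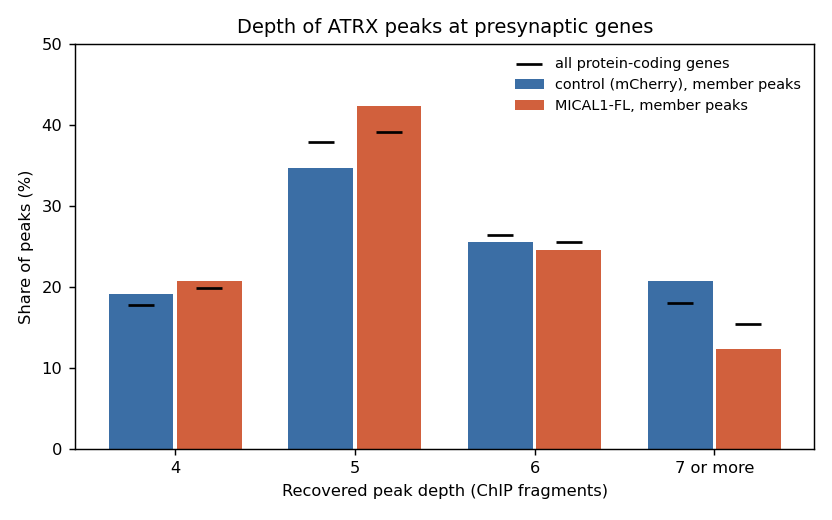
Share of member peaks in percent (bars, vertical axis) by recovered depth in ChIP fragments (horizontal axis) in each library, with black marks for peaks at all protein-coding genes. Peaks of 7 or more fragments are 20.8% of control and 12.3% of MICAL1-FL peaks at presynaptic genes, and 18.0% and 15.4% at all protein-coding genes.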

How the data were processed

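Peak lists of 2 ATRX ChIP samples were analysed, grouped by sample title; the input of control neurons was not analysed here. The tools named per the submitters' processing notes were ChIPseeker 1.26.2, MACS 1.4.2, Bowtie 1.3.0 and SAMtools 1.9. Their settings, the calling threshold and the build were not given in the sources used here. There was 1 list per ChIP sample, with the deposited fold of each peak as a ratio over background, its -log10 p and -log10 q, and a score that equalled the whole part of 10 times the -log10 p at 100% of peaks. The largest deposited p was 0.0498 (control) and 0.0496 (MICAL1-FL).

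Depth was recovered by taking the fold as (depth + 1) / (background + 1) and p as a Poisson tail, which no label states. It matched p within 0.01 on the -log10 scale at 99.9% of control and over 99.9% of MICAL1-FL peaks. Gene spans and promoters came from RefSeq tables of GRCm38.p6. Ratios have exact conditional binomial intervals, shares Clopper-Pearson intervals and densities Poisson intervals. For length weighting, the share or density of all protein-coding genes was taken in 10 classes of gene length. Lengths within a class, such as that of the longest genes, were not matched further. The alternatives were other flanks, thresholds, end distances and definitions of a shared peak. Named were the genes with most peaks in each group, those with end peaks in both lists, shared peaks, no peaks or the highest folds. The members and lists were chosen with earlier results of these data known. The counting steps were tested on simulated data. Python 3.11.15, pandas 2.3.3, NumPy 2.4.6 and SciPy 1.17.1 were used.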

Additional observations from a re-analysis of the deposited data

How the results depend on the processing

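Alternatives were flanks of 0 and 10 kb, p of at most 0.01, depth of at least 6 fragments, placement by summit and covered bp for all members and for each of the 4 groups. Leaving out the X chromosome was run for all members only. Leaving out each gene in turn was run for all members and, added after the data were seen, within each group. For the log2 ratios of peak numbers, 1 of these left the counting interval of the reported value: depth of 6 or more fragments gave -0.44 for synaptotagmin and Doc2 genes. Depth of 7 or more fragments, added after the data were seen, gave -0.50 for all members, -0.57 for synaptotagmin and Doc2 genes and -1.08 for vesicle protein genes. The densities against all genes stayed within their counting intervals under their 10 alternatives. Members with an end peak in both lists fell from 20 to 10 with ends within 500 bp (21.7%, against 7.67% of all genes). They fell to 11 with p of at most 0.01 (23.9%, against 7.95%). Neither share of all genes was weighted to length. Members with a shared peak fell from 25 to 14 with summits within 250 bp (30.4%, against 10.7% of all genes). They fell to 15 with an overlap of at least 50% of the shorter peak (32.6%, against 11.5%). With p of at most 0.01 they fell to 10 (21.7%, against 9.63%). These shares of all genes were not weighted to length either. The share of control peaks shared was 5.26% with summits within 250 bp (5.12% at all genes), 6.09% with that larger overlap (5.63%), 6.50% with p of at most 0.01 (6.69%) and 21.1% with peaks up to 1 kb apart (19.5%). Apart from the fewer peaks or narrower windows these settings leave, the cause was not tested. With 1 library per condition, no replicate could be left out.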

Other observations

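Among the 40 other genes of the vesicle machinery, peaks of q below 0.05 lay at 1 gene in each list, singled out after their values were seen. Syt14, for a synaptotagmin without calcium-binding residues, had a control peak 10 fragments deep with a fold of 4.20, and its highest MICAL1-FL fold was 2.29. It had 7 control peaks and 1 MICAL1-FL peak in all. Stx3, for a syntaxin of ribbon synapses and of postsynaptic membrane traffic, had a MICAL1-FL peak 11 fragments deep with a fold of 4.59, and its highest control fold was 2.67. Both exceed the highest folds at the 46 presynaptic genes, 3.86 (control) and 3.82 (MICAL1-FL).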
